A study of Mus musculus with 6 samples.

Results

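The transforming growth factor beta (TGF-beta) receptor and SMAD genes were followed in P14 CD8+ T cells sorted from tumor and from spleen. They are Tgfb1, Tgfbr1, Tgfbr2, Tgfbr3, Smad2, Smad3, Smad4, Smad7, Ski and Skil, chosen by symbol, and all 10 were found among the 55335 gene identifiers of the count table and passed the filter on low counts. P14 cells carry a transgenic T cell receptor for the GP33-41 peptide, and B16-GP33-41 is a mouse melanoma line that carries this peptide. P14 cells were given to C57BL/6 mice on day 11 after tumor cell implantation, and all samples are labelled 10-week-old and P14 TCR transgenic. The P14 TIL group holds 3 libraries of donor cells sorted from the tumor, after mashing and a Percoll step. The P14 Sp group holds 3 libraries of donor cells sorted from mashed spleens of the same tumor-bearing mice. Both groups are thus transferred cells from mice with a tumor, the spleen cells went through no Percoll step, and no cells from a mouse without a tumor are compared here. The labels do not say whether a library came from 1 mouse or from several, or which tumor and spleen libraries share a mouse. The main test therefore treats no libraries as pairs.

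TGF-beta is secreted as a latent dimer that is held on cell surfaces or in the matrix and freed by integrins or proteases. The free ligand binds the type II receptor, which activates the type I receptor, and this kinase phosphorylates SMAD2 and SMAD3, which join SMAD4 and bind DNA. SMAD7, SKI and the SKI relative SnoN limit this signal, and in CD8+ T cells the pathway is known for restraining cytotoxic genes and for inducing the integrin CD103.

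In P14 cells from tumor, transcripts of both signalling receptors, of Smad3 and Smad4, and of the inhibitors Smad7 and Ski were lower than in P14 cells from spleen. The ligand gene Tgfb1 and the corepressor gene Skil were higher, by less than the others fell. Tgfbr1 fell most, to 8.34 ± 0.726 CPM (the usual scaling of a count by its library total) in TIL, against 27.7 ± 2.98 CPM in spleen (SD, n = 3 each). Smad2 and Tgfbr3 did not pass the test. By edgeR's quasi-likelihood test with a Benjamini-Hochberg adjusted p below 0.05 over all 19783 genes tested, 6 of the 10 genes were lower and 2 higher. Over all genes tested 35.9% were lower and 34.8% higher, and 70.7% were called in either direction, so that 8 calls in 10 genes is close to the background. The median log2 fold change, P14 TIL over P14 Sp, was -0.77 over the 10 genes and -0.02 over all genes tested. The libraries of the tissues did not overlap for 8 of the 10 genes, and for 74.5% of all genes tested. Against a null of a 1.5-fold change (edgeR's glmTreat), 5 of the 10 were lower and 0 were higher, while 17.5% of all genes were lower and 14.9% higher. The 5 were Tgfbr1, Tgfbr2, Smad3, Smad4 and Smad7. At an unadjusted p below 0.05 in that test 6 were lower and 0 higher.

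Total counts ranged from 35095261 to 38263483 per library. Replicates differed more in tumor than in spleen, with a biological coefficient of variation of 10.5% in TIL and 3.21% in spleen. T cell genes were abundant in both groups, with Cd8b1 at 751 ± 36.9 CPM in TIL and 1174 ± 12.0 CPM in spleen. Markers of other cells were lower in TIL for 10 of 10 B cell genes, 10 of 10 macrophage genes, 10 of 10 dendritic cell and MHC class II genes and 6 of 6 platelet genes. Over all genes tested 35.9% were lower. Summed over the list, B cell genes were at 279 to 281 CPM in TIL and 1348 to 1351 CPM in spleen. Of them Ighm weighed most, at 270 ± 1.70 CPM in TIL and 807 ± 8.11 CPM in spleen. Macrophage genes summed to 40.6 to 42.4 CPM in TIL and 259 to 274 CPM in spleen. Dendritic cell genes summed to 80.5 to 86.5 CPM in TIL and 1824 to 1868 CPM in spleen. Of the other marker lists, 2 T cell genes were higher and 3 lower of 10, 2 CD4 and regulatory T cell genes higher and 2 lower of 5, 5 red cell genes higher and 1 lower of 6, and 2 NK cell genes higher of 5. Of the tested genes, 1 of 2 fibroblast and endothelial genes was lower, and of 3 melanoma genes 1 was higher and 1 lower. The higher one was Dct, at 0.460 ± 0.0180 CPM in TIL and 0.00885 ± 0.0153 CPM in spleen. The lower one was Pmel, at 8.54 ± 0.876 CPM in TIL and 19.8 ± 1.07 CPM in spleen. Tyrp1, too low to be tested, was at 0.575 ± 0.304 CPM in TIL and 0 CPM in spleen. The B cell gene Cr2, the dendritic cell genes Clec9a and Siglech and the platelet genes Gp9 and Treml1 had 0 counts in all TIL libraries, and are named for that reason. Of 14 genes that tissue dissociation can induce, 12 were higher in TIL (85.7%, against 34.8% of all genes tested) and 1 lower. They summed to 5124 to 5414 CPM in TIL and 2681 to 2770 CPM in spleen. Hspa8 was the most abundant of them, at 2316 ± 88.4 CPM in TIL and 1171 ± 8.25 CPM in spleen, and weighs most in these sums. The markers that differed between the tissues did so alongside every difference given here, and their part in it was not tested. In sorted bulk RNA, fewer cells with a transcript and less of it per cell cannot be told apart. Codes in the sample descriptions share 1 ending in all TIL libraries and another in all spleen libraries, which, if these endings stand for batches, cannot be told apart from tissue.

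**Figure D1:**
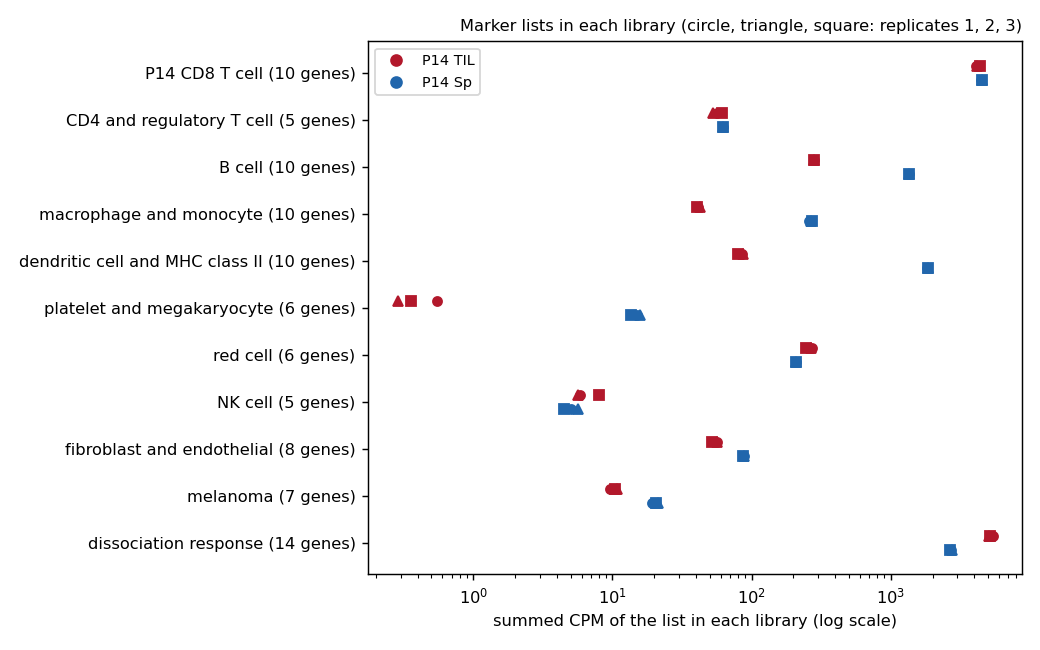
Summed CPM of each marker list (horizontal axis, log scale) in each library, with P14 TIL in red above P14 Sp in blue. The platelet list sits at 0.287 to 0.548 CPM in TIL and 13.6 to 15.8 CPM in spleen, while the T cell list sits at 4090 to 4386 CPM in TIL and 4494 to 4565 CPM in spleen.

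The ligand gene Tgfb1 encodes TGF-beta 1, the form made by most leukocytes. It was at 138, 135 and 129 CPM in the TIL libraries, against 109, 110 and 116 CPM in the spleen libraries. Every TIL library lay above every spleen library, and the difference was 1.23-fold (log2 fold change 0.29, SE 0.06, adjusted p = 0.00083, edgeR). Platelets are rich in this ligand, and their markers summed to 0.287 to 0.548 CPM in TIL and 13.6 to 15.8 CPM in spleen. Tgfb1 was the most abundant of the 10 genes per length in TIL, at 26.5 ± 0.870 CPM per kb of exon, and stood in place 4 in spleen, at 22.1 ± 0.739 CPM per kb (SD, n = 3 each).

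Tgfbr1 encodes the type I receptor, the kinase that phosphorylates SMAD2 and SMAD3. It was at 7.54, 8.96 and 8.51 CPM in TIL, against 30.6, 27.8 and 24.7 CPM in spleen, so the lowest spleen library was well above the highest TIL library. The fall was 3.26-fold (log2 fold change -1.70, SE 0.10, adjusted p = 4.7e-08), which put Tgfbr1 among the lowest 7.09% of all genes tested by log2 fold change. Tgfbr2 encodes the type II receptor, which binds the ligand first. It was at 159, 153 and 130 CPM in TIL, against 251, 260 and 257 CPM in spleen. The libraries did not overlap, and the fall was 1.70-fold (log2 fold change -0.77, SE 0.08, adjusted p = 4.2e-06). Tgfbr3 encodes betaglycan, a coreceptor that presents ligand to the type II receptor. It was the least abundant of the 10 genes, at 2.58, 1.78 and 3.01 CPM in TIL and 3.56, 2.50 and 2.42 CPM in spleen, from 68 to 130 counts a library. The groups overlapped and Tgfbr3 did not pass (log2 fold change -0.18, SE 0.21, adjusted p = 0.47); its sign turned when 1 library was left out, to 0.02 without TIL replicate 2 and 0.02 without spleen replicate 1 (adjusted p = 0.95 and 0.94).

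**Figure D2:**
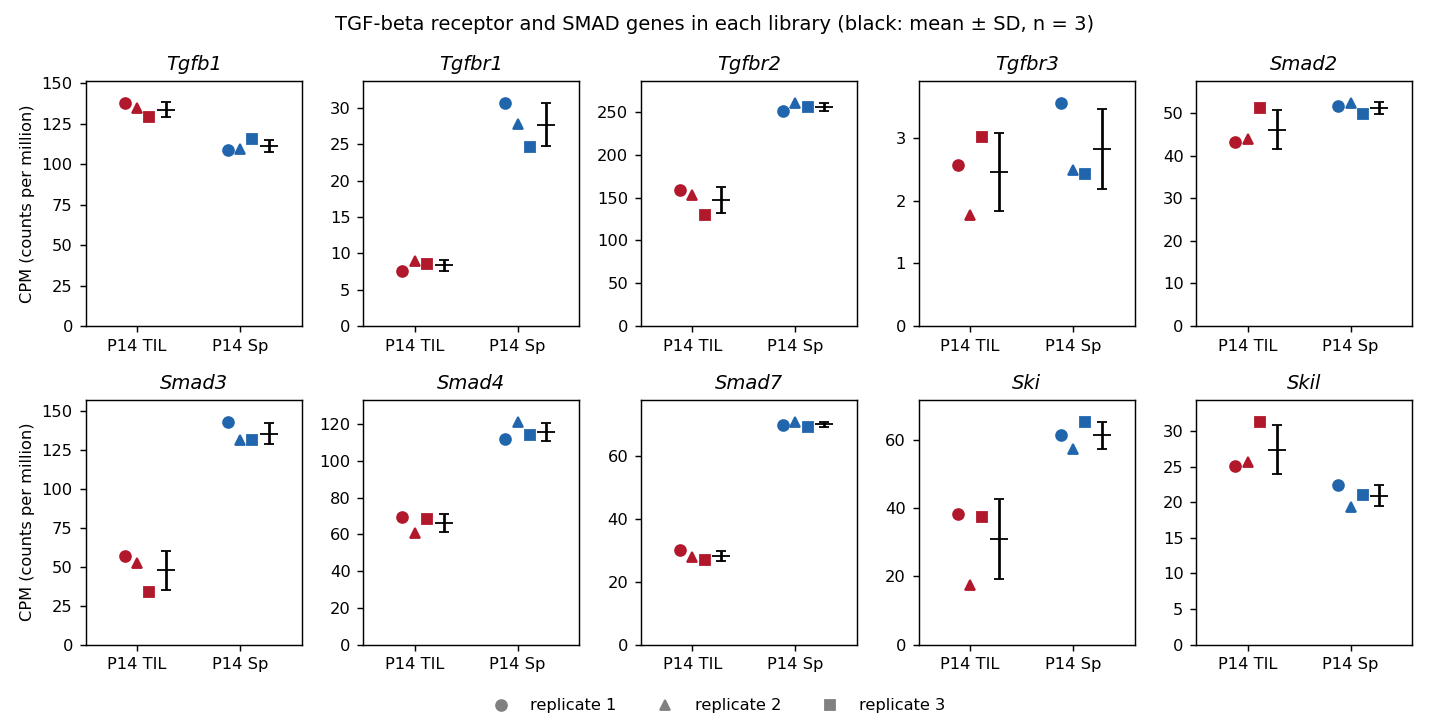
CPM (vertical axes, from 0) of each gene in each library, with the 3 P14 TIL libraries left of the 3 P14 Sp libraries and black marks for mean ± SD. TIL and spleen libraries overlap for Tgfbr3 and Smad2, and in TIL replicate 2 stands low for Ski (17.5 CPM) and replicate 3 for Smad3 (33.4 CPM).

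Smad3 encodes 1 of the receptor-activated SMADs, and its transcript was at 57.0, 52.5 and 33.4 CPM in TIL, against 143, 131 and 131 CPM in spleen. All TIL libraries were below the spleen libraries, with TIL replicate 3 the lowest. The fall was 2.78-fold (log2 fold change -1.47, SE 0.16, adjusted p = 6.4e-06) and lay between -1.62 and -1.26 on the log2 scale over all settings tried. Smad2, its close relative with the same role, was at 43.2, 43.8 and 51.3 CPM in TIL and 51.7, 52.3 and 49.7 CPM in spleen. The groups overlapped through TIL replicate 3, and Smad2 did not pass (log2 fold change -0.12, SE 0.07, adjusted p = 0.14). It was called lower without that library (log2 fold change -0.19, adjusted p = 0.0059) and with upper-quartile scaling (-0.18, adjusted p = 0.042). Smad4, the shared partner of the activated SMADs, was at 69.5, 60.8 and 68.6 CPM in TIL, against 112, 121 and 114 CPM in spleen. Its libraries did not overlap, and it fell 1.71-fold (log2 fold change -0.78, SE 0.07, adjusted p = 1.3e-06).

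Smad7 encodes the inhibitory SMAD that blocks the type I receptor and brings ubiquitin ligases to it, and the gene is itself induced by TGF-beta. It was at 30.1, 28.0 and 26.9 CPM in TIL, against 70.1, 71.0 and 69.5 CPM in spleen. The values within each tissue lay close together, and the fall was 2.43-fold (log2 fold change -1.28, SE 0.07, adjusted p = 2.1e-08). Ski encodes a corepressor that binds SMAD complexes on DNA. It was at 38.1, 17.5 and 37.5 CPM in TIL, against 61.3, 57.4 and 65.3 CPM in spleen. No TIL library reached the spleen values, but replicate 2 stood well below the other TIL libraries. The fall was 1.94-fold (log2 fold change -0.95, SE 0.22, adjusted p = 0.0022), and -0.66 on the log2 scale without TIL replicate 2 (adjusted p = 6.8e-05). Skil encodes SnoN, the relative of SKI, which SMAD signalling degrades as a protein and induces as a transcript. It was at 25.1, 25.7 and 31.4 CPM in TIL, against 22.5, 19.4 and 21.0 CPM in spleen. The libraries did not overlap, and the rise was 1.33-fold (log2 fold change 0.41, SE 0.09, adjusted p = 0.0019).

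**Figure D3:**
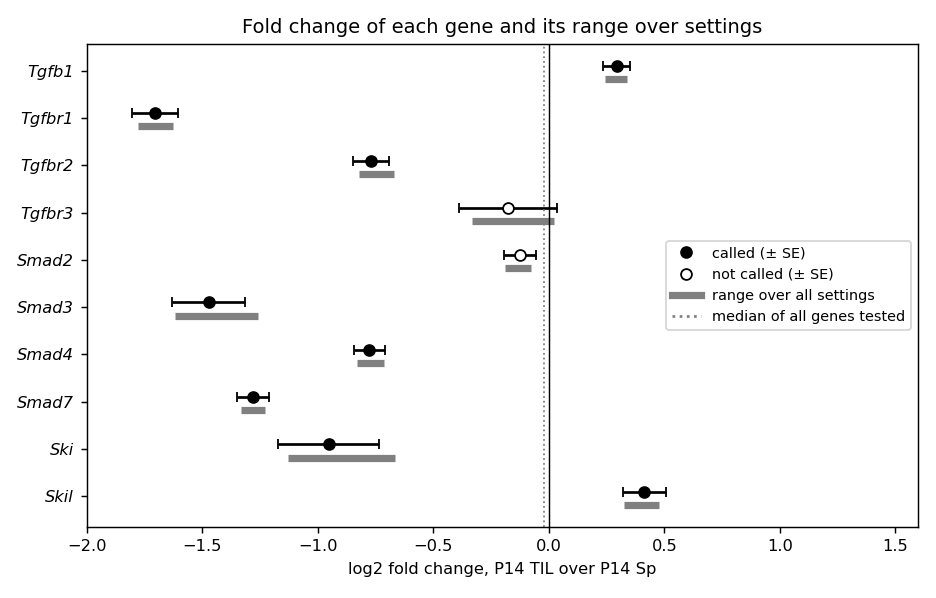
Log2 fold change of each gene, P14 TIL over P14 Sp (horizontal axis), with its approximate SE as a bar and the range over all settings as a grey band; filled points passed the test. The bands of Tgfbr1, Tgfbr2, Smad2, Smad3, Smad4, Smad7 and Ski lie below 0 and those of Tgfb1 and Skil above it, while the band of Tgfbr3 crosses 0 (-0.33 to 0.02).

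The promoters of Tgfbr1, Tgfbr2 and Smad3, which were lower, and of Tgfb1, which was higher, are shown to set the 2 signalling receptors and a SMAD they activate beside the ligand. Each is the 250 bases before the RefSeq gene start in GRCm38.p6, read 5′ to 3′ on the gene's strand, which lies at chr7:25686752-25687001 (plus strand) for Tgfb1, chr4:47352972-47353221 (plus) for the first of 2 starts of Tgfbr1, chr9:116175364-116175613 (minus) for Tgfbr2 and chr9:63757995-63758244 (minus) for Smad3. Capitals mark the GC box GGGCGG and the SMAD-binding motif CAGAC, on either strand; marked motifs of different kinds do not overlap.
Tgfbr1: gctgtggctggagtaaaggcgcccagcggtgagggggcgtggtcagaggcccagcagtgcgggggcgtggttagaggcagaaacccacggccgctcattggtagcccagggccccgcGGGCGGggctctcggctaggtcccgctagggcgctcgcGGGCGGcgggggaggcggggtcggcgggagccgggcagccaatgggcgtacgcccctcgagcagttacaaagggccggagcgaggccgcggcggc
Tgfbr2: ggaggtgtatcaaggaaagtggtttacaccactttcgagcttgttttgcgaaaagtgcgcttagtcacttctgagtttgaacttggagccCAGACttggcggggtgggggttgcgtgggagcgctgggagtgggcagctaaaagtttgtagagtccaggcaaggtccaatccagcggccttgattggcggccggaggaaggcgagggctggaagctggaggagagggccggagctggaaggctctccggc
Smad3: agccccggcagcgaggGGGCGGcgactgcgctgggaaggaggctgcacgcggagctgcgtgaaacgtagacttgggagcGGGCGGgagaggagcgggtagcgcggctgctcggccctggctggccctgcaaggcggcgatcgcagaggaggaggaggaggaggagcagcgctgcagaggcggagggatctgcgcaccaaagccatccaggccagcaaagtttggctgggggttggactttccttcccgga
Tgfb1: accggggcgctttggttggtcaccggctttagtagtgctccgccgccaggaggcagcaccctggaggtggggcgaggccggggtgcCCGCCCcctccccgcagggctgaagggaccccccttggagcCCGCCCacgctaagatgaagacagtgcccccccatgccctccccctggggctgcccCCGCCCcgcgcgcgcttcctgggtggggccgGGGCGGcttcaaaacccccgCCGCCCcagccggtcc
The GC box occurred 2 times in the Tgfbr1 window, 2 times in that of Smad3 and 5 times in that of Tgfb1, and 0 times in that of Tgfbr2. Of 32817 such windows over all genes, 32.7% held it. The motif CAGAC occurred once in the Tgfbr2 window, 160 bases before the start, and not in the other windows printed; 42.2% of all windows held it. The window of the second Tgfbr1 start, at chr4:47385966-47386215 and not printed, held CAGAC once, 203 bases before that start, and the GC box 0 times, with 52.8% G and C. The palindrome GTCTAGAC (in 0.168% of all windows) and the AP-1 motif TGANTCA (in 6.75%) were in none of the 4. These are letter matches, not binding sites. The base composition differed, with 74.8% G and C for Tgfbr1, 58.4% for Tgfbr2, 69.2% for Smad3 and 75.2% for Tgfb1. The window of Ski, which was lower in TIL and is not printed, held the GC box 5 times and CAGAC 0 times. It had 87.6% G and C. Tgfb1 was the only higher gene with a window, so no relation to the direction of change can be read from these windows.

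Ratios of counts between 2 genes within a library do not depend on the scaling between libraries. In all, 5 such ratios were compared, and with 3 libraries against 3 the exact permutation test cannot give a p below 0.1. Smad3 counts were 1.32, 1.20 and 0.651 times Smad2 counts in TIL, against 2.76, 2.51 and 2.64 times in spleen. The difference was -1.39 on the log2 scale, without overlap (two-sided exact permutation p = 0.1, adjusted p = 0.17 over the 5 ratios). Skil counts were 0.659, 1.47 and 0.836 times Ski counts in TIL, against 0.366, 0.338 and 0.322 times in spleen. This ratio was 2.73-fold higher in TIL, also without overlap and at the smallest p (exact permutation p = 0.1). Tgfbr1 counts were 0.0475, 0.0586 and 0.0655 times Tgfbr2 counts in TIL, against 0.122, 0.107 and 0.0962 times in spleen, a log2 difference of -0.93 without overlap (exact permutation p = 0.1). The ratios of Tgfbr3 to Tgfbr2 (log2 difference 0.59, exact permutation p = 0.2) and of Smad7 to Smad3 (0.23, exact permutation p = 0.5) overlapped between the tissues.

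**Figure D4:**
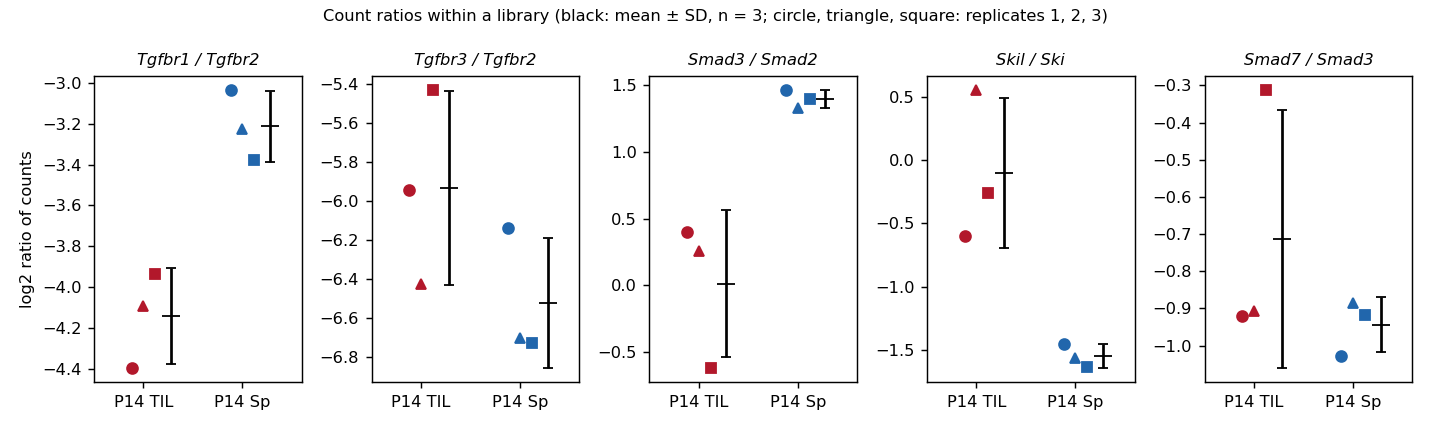
Log2 ratios of counts of 2 genes in each library (vertical axes, each panel with its own range), P14 TIL left of P14 Sp, with mean ± SD in black. Smad3 over Smad2 and Tgfbr1 over Tgfbr2 lie lower in every TIL library and Skil over Ski higher, while the last panel and Tgfbr3 over Tgfbr2 overlap.

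Per length of annotated exons, the order of levels differed between the tissues. In TIL, Tgfb1 came first, followed by Tgfbr2 (18.0 ± 1.86 CPM per kb) and Smad4 (17.9 ± 1.29), whose libraries overlapped. Smad3 (8.59 ± 2.26), Smad7 (6.27 ± 0.361), Ski (5.59 ± 2.11) and Smad2 (5.25 ± 0.512) came next, and neighbours among these overlapped; Smad2 did not overlap Skil, which followed. In spleen, Tgfbr2 (31.3 ± 0.582 CPM per kb) and Smad4 (31.2 ± 1.30) led and overlapped, and were followed, without overlap between neighbours, by Smad3 (24.4 ± 1.21), Tgfb1, Smad7 (15.5 ± 0.176), Ski (11.0 ± 0.709) and Smad2 (5.83 ± 0.154). At the low end, Tgfbr1 was at 1.28 ± 0.111 CPM per kb in TIL, below Skil at 2.83 ± 0.354, while in spleen Tgfbr1 was at 4.24 ± 0.456, above Skil at 2.16 ± 0.157. Tgfbr3 was last in both tissues, at 0.375 ± 0.0957 CPM per kb in TIL and 0.432 ± 0.0968 in spleen. All are mean ± SD with n = 3, and the exon lengths are those of GENCODE M21, which need not be the isoforms these cells use.

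In mm10, as GENCODE release M21 gives them, the genes lie on 6 chromosomes. Tgfb1 is on chromosome 7 at 25687002 to 25705077. Tgfbr1 (47353222 to 47414931) and Ski (155154075 to 155222592) are on chromosome 4. Tgfbr2 (116084293 to 116175360) and Smad3 (63646767 to 63757994) are on chromosome 9, Tgfbr3 is on chromosome 5 at 107106570 to 107289629, and Skil is on chromosome 3 at 31095058 to 31122577. Smad2, Smad4 and Smad7 are all on chromosome 18, and their log2 fold changes differed, at -0.12, -0.78 and -1.28. Exons of Tgfbr3 share 297 bases with a gene model on the same strand, Gm43422, which had 1 to 6 counts in TIL and 5 to 10 in spleen. No other of the 10 genes shared exon bases with another gene model of this release.

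Over the 6 libraries, the genes with the pattern most like that of Tgfbr1 were Calcrl, Parp12 and Tsc22d3, with root mean square differences of 0.06, 0.08 and 0.09 in centred log2 CPM. They had log2 fold changes of -1.63, -1.74 and -1.75. For Skil they were Utp14a, Mrpl40 and Mrpl50 (differences of 0.03, 0.04 and 0.05), with log2 fold changes of 0.40, 0.36 and 0.40. The search covered 8473 protein-coding genes with a mean of at least 10 CPM, and a likeness over 6 libraries in 2 groups mostly reflects the size of the tissue difference.

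Of the genes for other ligands, latency and activation, 10 of 13 were tested, 5 were higher and 4 lower, where 34.8% of all genes tested were higher and 35.9% lower. With most genes called in 1 direction or the other, calls on both sides are no result about these genes as a group. Lrrc32, which encodes GARP, the surface anchor of latent TGF-beta, was at 20.0, 21.8 and 17.5 CPM in TIL, against 1.15, 0.558 and 0.484 CPM in spleen. Every TIL library was far above the spleen libraries (27.5-fold, log2 fold change 4.78, SE 0.21, adjusted p = 4.9e-09). GARP is also made by regulatory T cells and platelets. Of the 5 genes on the CD4 and regulatory T cell list, all given here after their values were seen, Cd40lg (2.37-fold) and Ikzf2 (3.45-fold) were higher in TIL, Cd4 (6.84-fold) and Zbtb7b (2.18-fold) were lower, and Foxp3 was at 9.97 ± 1.36 CPM in TIL and 10.3 ± 0.332 CPM in spleen (adjusted p = 0.87). The list summed to 52.7 to 61.7 CPM in TIL and 62.1 to 62.7 CPM in spleen, and its part in the Lrrc32 difference was not tested. Itgav, the alpha chain of integrins that free TGF-beta, was 2.52-fold higher in TIL (86.7 ± 4.69 against 35.1 ± 0.647 CPM). Its partner chains on this list, Itgb6 and Itgb8, were too low to be tested, and no other partner chain is on it. Furin, a protease that cuts the precursor, was 1.68-fold higher and is named here because of its values. Nrros, an anchor of latent TGF-beta known from myeloid cells, was lower (-0.84 on the log2 scale), as was Thbs1, an extracellular activator (-1.48). Nrros was at 99.0 ± 3.10 CPM in TIL and 180 ± 7.00 CPM in spleen. The 10 macrophage markers, all lower in TIL, summed to 40.6 to 42.4 CPM in TIL and 259 to 274 CPM in spleen. Their part in the Nrros and Thbs1 differences was not tested.

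Among activin and BMP receptors and the other SMADs, 7 of 13 genes were tested, 4 were lower (57.1%, against 35.9% of all genes tested) and 0 higher by edgeR, with a list median of -0.67. At an unadjusted p below 0.05 edgeR gave 0 higher, DESeq2 1 and limma-voom 0, and after adjustment DESeq2 and limma-voom gave 0. Acvrl1, a type I receptor best known from endothelium, fell by 2.09 on the log2 scale, to 0.611 ± 0.106 CPM in TIL, against 2.67 ± 0.349 CPM in spleen. Smad5, a SMAD of the BMP branch, fell by 0.67 to 9.64 ± 0.548 CPM, against 15.6 ± 0.818 CPM in spleen.

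Of 18 regulators of receptors and SMADs, 6 were higher, 6 lower and 6 not called, which is 33.3% each way and close to the 34.8% and 35.9% over all genes tested. Tgif1, a corepressor of SMAD complexes, was 2.92-fold higher (36.8 ± 0.995 CPM in TIL and 12.8 ± 0.640 CPM in spleen). Its relative Tgif2 was 2.13-fold higher, and Pmepa1, a TGF-beta-induced protein that holds back SMAD2 and SMAD3, was 4.07-fold higher at 8.44 ± 1.86 CPM in TIL and 2.11 ± 0.293 CPM in spleen; both were named after their values were seen. Fkbp1a, which encodes FKBP12, a protein that keeps the type I receptor inactive, was 1.95-fold higher. The ubiquitin ligase genes Nedd4l (-0.92 on the log2 scale) and Rnf111, which encodes Arkadia, a ligase that degrades SMAD7, SKI and SnoN (-0.71), were lower. Of the SMAD partners and corepressor genes, 13 of 14 were tested, 6 were lower (46.2%, against 35.9% of all genes tested) and 1 higher (7.69%, against 34.8%). The acetyltransferase gene Ep300 (-0.76) and the transcription factor gene Runx1 (-0.79) were lower, and the deacetylase gene Hdac1 was higher (0.39). Map3k7, which encodes the kinase TAK1 of the SMAD-independent branch, was at 68.5 ± 2.99 CPM in TIL and 63.6 ± 1.54 CPM in spleen, which was not called (adjusted p = 0.057).

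**Figure D5:**
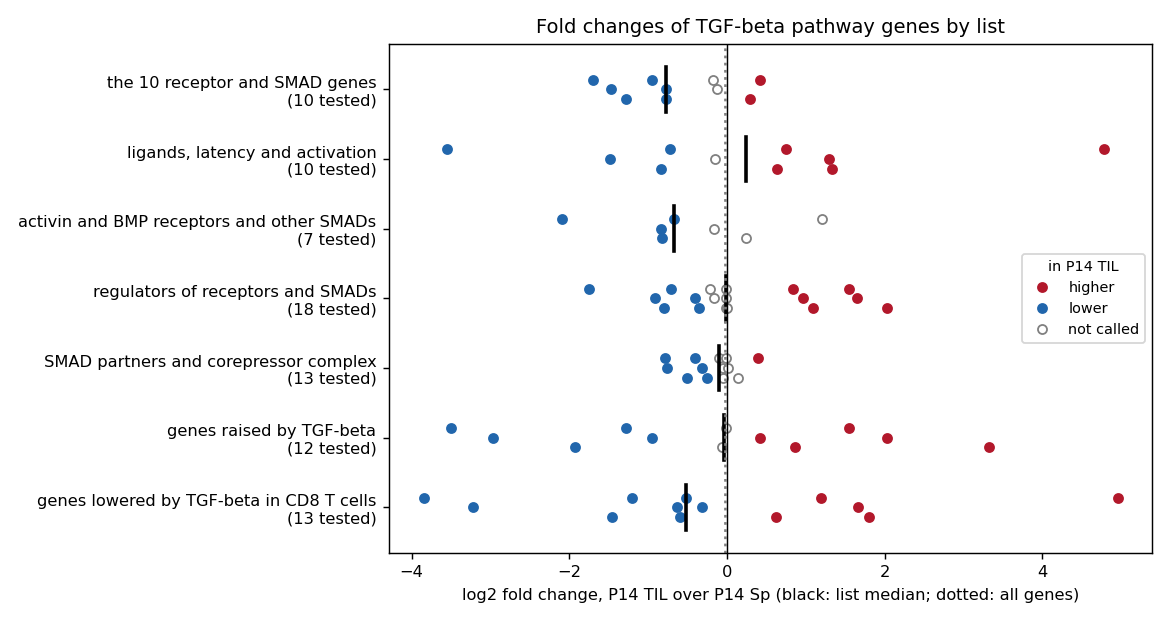
Log2 fold change, P14 TIL over P14 Sp (horizontal axis), of every tested gene of each list, with the list median in black. The 10 receptor and SMAD genes have a median of -0.77, and the regulators a median of -0.01 with members on both sides of 0.

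Of 14 genes that TGF-beta is known to raise, 12 were tested, 5 were higher, 5 lower and 2 not called. These shares, 41.7% each way, are near those over all genes tested (34.8% higher and 35.9% lower), and the list median was -0.04; Smad7, Ski and Skil are among them, and Pmepa1, Ldlrad4 and Tgif1 are also among the regulators above. Itgae, which encodes the CD103 integrin chain, was at 2.52, 3.21 and 2.49 CPM in TIL, against 21.9, 24.1 and 20.0 CPM in spleen. All TIL libraries were below the spleen libraries, a 7.84-fold fall (log2 fold change -2.97, SE 0.12, adjusted p = 2.7e-09, edgeR). Itgae is also made by a subset of dendritic cells. The dendritic cell and MHC class II list, which is not specific to that subset, had 10 of 10 genes lower in TIL. Its part in the Itgae difference was not tested. Itga1, the CD49a integrin chain, was 3.82-fold lower. Cdkn1a, the cell cycle inhibitor p21, which other signals such as p53 also induce, was 10.0-fold higher (42.2 ± 0.799 CPM in TIL and 4.29 ± 0.747 CPM in spleen).

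Of 13 genes that TGF-beta is known to lower in CD8+ T cells, 5 were higher (38.5%, against 34.8% of all genes tested) and 8 lower (61.5%, against 35.9%). Ifng (log2 fold change 4.96) and the cytotoxic gene Gzmb (1.66) were higher in TIL. S1pr1 (-3.22), which guides T cells out of tissue, and the transcription factor gene Klf2 (-3.85) were lower. Cytotoxic genes on this list went both ways. Prf1 (1.80) and Fasl (0.62) were higher and the granzyme gene Gzma (-1.20) was lower, all named after their values were seen. Over the 79 pathway genes other than the 10, 67 were tested, 19 were higher (28.4%) and 31 lower (46.3%), and their median log2 fold change was -0.16.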

How the data were processed

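RNA was sequenced from 3 P14 TIL and 3 P14 Sp libraries, prepared, per the labels' protocols, from total RNA with a kit for low input and a stranded kit. The deposited values are raw counts per gene, with no normalization by the authors. The submitters' processing notes list the mm10 genome, featureCounts, STAR 2.3 and bcl2fastq 2.20.0.422. Not given in the sources used here are the annotation release, whether strand was used, and how reads matching several places were handled. Symbols were found for 55154 of 55335 identifiers, in GENCODE release M21 or a list of gene names, and 54587 matched M21 with their version. All 6 columns were mapped to a sample by its description.

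Counts were tested with the quasi-likelihood test of edgeR 4.0.16 (R 4.3.3) after TMM scaling and its filterByExpr filter (count at least 10, total at least 15), with Benjamini-Hochberg adjustment and a threshold of 0.05. Fold changes are P14 TIL over P14 Sp, and SE is the absolute log2 fold change over the square root of F. Ratios used SciPy 1.17.1. CPM values are counts over library totals. Where a library has 0 counts, up to 3 counts (0.0855 CPM at most) remain possible from counting error alone.

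Chi-square per degree of freedom was 8.38 to 30.4 between TIL libraries, 2.11 to 3.3 between spleen libraries and 221 to 249 across tissues, so no library copies another. The labels do not say that libraries are separate mice, so p-values reflect only how these samples vary, and part of that may be technical. The genes and the 18 lists were chosen with earlier results of these data known. Named genes were the 10 genes and the 3 genes most alike in pattern. Of each pathway list, the 2 genes with the smallest p in each direction were named. Pathway genes under 1 CPM in both tissues were left out of that choice. The marker with the highest CPM was named for some marker lists only. All others, such as markers at 0 and genes too low to test, were picked after their values were seen. Alternatives were other scalings, no filter, DESeq2 1.42.0, limma-voom (limma 3.58.1), a null of a 1.5-fold change, a replicate block and each library left out. Promoters are RefSeq sequences of GRCm38.p6, found for 5 of the 10 genes.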

Additional observations from a re-analysis of the deposited data

How the results depend on the processing

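Over 14 alternatives, Tgfbr1, Tgfbr2, Smad3, Smad4 and Smad7 kept their direction and call. With no filter, with the 3 other scalings and with DESeq2 or limma-voom, 6 genes were lower and 2 higher, except that upper-quartile scaling gave 7 lower. Leaving out 1 library gave 6 to 7 lower and 2 higher. Against a null of a 1.5-fold change 5 were lower and 0 higher, and the calls of Tgfb1 (adjusted p = 1), Skil (adjusted p = 1) and Ski (adjusted p = 0.054) were lost, since that test asks for more. In the same test 2953 genes were higher and 3464 lower over all genes, 1 activin and BMP gene was lower, 0 SMAD partner genes were higher (0 also at an unadjusted p below 0.05) and 2 lower, and 4 of the genes lowered by TGF-beta were lower. The log2 fold change of Tgfbr3 ran from -0.3314 to 0.0210 with 1 library left out, as given above. Without a filter 1 activin and BMP gene was higher. Leaving out 1 library gave 0 to 1 higher activin and BMP genes and 1 to 2 higher SMAD partner genes. The cause of these shifts was not tested. With a replicate block, 6 of the 10 genes were lower and 2 higher, 6746 genes were higher and 7026 lower, and no call of the 10 changed. Deviations of equal-numbered libraries correlated at -0.00079, 0.016 and 0.0024, under the 0.1 asked for here to treat them as pairs, which does not tell whether they share a mouse. Tgfbr3 had the fewest counts of the 10 genes, 68 to 130 a library, and an SE of 0.21 on the log2 scale.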
